A study of Rattus norvegicus with 26 samples.

Results

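The genes described here are 44 genes of the cell cycle and of DNA replication, taken from a fixed list of names and looked up by symbol in the fetal and in the adult expression tables of rat heart, where all 44 were found among 30044 genes. They were grouped by role into 11 genes of replication licensing and the replication fork, 3 genes of nucleotide supply, 4 G1 cyclins, 4 genes for the S, G2 and M cyclins and their kinase, 7 mitotic kinase and checkpoint genes, 2 partners of the anaphase-promoting complex, 5 kinetochore and spindle genes, 6 genes of the central spindle and cytokinesis, and 2 general proliferation markers. RNA-seq had been done on 26 hearts of Sprague Dawley rats, an outbred laboratory strain, with 1 library of rRNA-depleted total RNA per heart. The fetal hearts were taken on embryonic day 21 and comprised 3 control hearts (dams in normoxia) and 3 hypoxia hearts (dams kept in low oxygen during the last part of the pregnancy). The adult hearts came from offspring 5 months old, in 4 groups of 5: control males, hypoxia males, control females and hypoxia females, where hypoxia again means exposure before birth and not in the adult. No group carried a transgene or a deletion. The study asked what antenatal hypoxia does to RNA levels in the fetal heart and, later, in the adult heart.

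A cell that divides passes through G1, in which the D-type and E-type cyclins with their kinases phosphorylate the retinoblastoma protein and release E2F transcription factors, and the E2F factors then switch on genes for licensing, forks and nucleotides. In G2 and mitosis a later set of genes is switched on, among them cyclin B, Cdk1, the Aurora and Polo kinases and the motors of the spindle, and many of these are held silent in resting cells by the DREAM complex through a promoter element called the CHR. Rat heart muscle cells divide before birth and leave the cell cycle in the first weeks after it, whereas fibroblasts, endothelial cells and leukocytes of the heart can still divide in the adult.

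Levels are given as FPKM, the fragments of a gene per kilobase of its length, scaled to the size of the library, so that genes of different length can be compared. The whole numbers deposited beside them, here called scaled fragments, summed to between 5397637 and 5863020 per fetal library and to between 6961535 and 8527249 per adult library; they had been scaled before deposit, so these sums are not the sequencing depth. Heart muscle markers were high at both ages: the 8 markers summed to 14170 to 15435 FPKM in the fetal and to 25977 to 48678 FPKM in the adult libraries. In 6 male libraries (control 3, 4 and 5, hypoxia 2, 4 and 5), 381 to 1106 of 1386 olfactory and vomeronasal receptor genes were above 0, and 53 or fewer in each of the other 14 adult hearts. Y-linked Kdm5d (3.82 FPKM) and Eif2s3y (13.7 FPKM) were present in the library labelled female control 3, which goes against its label. Among the fetal hearts, control 1, control 3 and hypoxia 1 held Y-linked RNA (Kdm5d 6.75 to 7.13 FPKM) and the other 3 did not (at most 0.0284 FPKM), so that the sexes were mixed and unevenly spread over the groups. The sources name no litters, so n counts hearts and the p-values measure the spread between these hearts. The sample codes of fetal hypoxia 1 and 2 begin alike and those of the 3 controls do not; whether that marks a shared dam is not stated.

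Between the ages, 41 of the 44 genes were higher in the fetal heart and 0 were higher in the adult heart. A gene was counted where its mean FPKM was at least 2 times that of the other age and no library of the other age reached the lowest library of the higher one. Over the 14601 genes with a mean of at least 1 FPKM at either age, 20.9% were counted as fetal-higher by this rule and 10.8% as adult-higher. The median fetal-to-adult ratio was 41.8 over the 44 genes and 1.27 over all genes. Of the 44 genes, 28 had an adult mean under 1 FPKM and met the floor only through the fetal libraries. The size of their ratios rests on adult values near 0. With the floor set at both ages the median of the members was lower, as given at the end. Without the 6 male libraries and the library labelled female control 3, a setting chosen after seeing the data, 42 of the 44 were counted with a median of 47.1, and the ratio rose by over 1.5 times for 5 genes: Rrm2 (246 to 384), Ect2 (140 to 249), Bub1b (92.4 to 149), Cenpf (80.5 to 127) and Kif11 (78.2 to 120). The 2 tables were normalised separately, so the ratios carry no test, and the age of the heart cannot be told apart from the table it was quantified in. In whole hearts, fewer cycling cells and less RNA per cycling cell cannot be told apart either.

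The 5 genes with the largest ratios were Rrm2, Cdk1, Ccnb1, Ect2 and Top2a. Rrm2, the small subunit of ribonucleotide reductase that is made in S phase, ranged from 24.9 to 27.9 FPKM in the 6 fetal libraries, and in the 20 adult libraries its lowest value was 0, its median 0.0947 and its highest 0.335. The ratio of the means was 246, the largest of the 44, and it rests on 40 scaled fragments summed over all adult libraries, 5 of which were at 0. Cdk1, the kinase that drives entry into mitosis, had 36.0 to 45.7 FPKM in the fetal libraries and a median of 0.216 (0 to 0.665) in the adult libraries, a ratio of 179. Its partner Ccnb1, cyclin B1, followed with a ratio of 155 (37.0 ± 4.89 against 0.238 ± 0.209 FPKM, SD, n = 6 and 20). Ect2, the exchange factor that starts the cleavage furrow, was at 29.5 to 39.4 FPKM in fetal and 0.0325 to 1.02 FPKM in adult libraries, 140 times on the means, and Top2a, the topoisomerase that untangles replicated DNA, had a ratio of 121 (82.9 ± 8.63 against 0.685 ± 0.282 FPKM). For each of these 5 genes the lowest fetal library stood 28.9 times or more above the highest adult one.

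Of the proteins that license origins and run at the fork, all 11 were fetal-higher, with a median ratio of 11.6. The 6 subunits of the MCM helicase, which unwinds DNA at the fork, had ratios of 6.98 (Mcm2), 18.2 (Mcm3), 8.05 (Mcm4), 22.7 (Mcm5), 20.5 (Mcm6) and 4.90 (Mcm7). Cdc6 and Cdt1, which load that helicase onto origins, had ratios of 11.6 and 15.1. The GINS subunits, which complete the active helicase, lay far apart, at 24.5 for Gins1 and 2.57 for Gins2, and Gins2 was the counted gene closest to the limit of 2. Pcna, the sliding clamp of the polymerases, had 62.3 ± 4.75 FPKM in the fetal libraries and 8.81 ± 1.47 FPKM in the adult ones (SD, n = 6 and 20), a ratio of 7.07 with fetal values of 55.6 to 68.0 and adult values of 6.88 to 12.3. The summed level of the 11 genes was 249 ± 13.7 FPKM before birth and 29.7 ± 3.35 FPKM in the adult, so that this group kept more of its fetal level than the mitotic groups did. In nucleotide supply, Rrm1, the large subunit of ribonucleotide reductase, and Tyms, thymidylate synthase, had ratios of 7.43 and 6.57, far below that of Rrm2, which makes the same enzyme with Rrm1.

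The G1 cyclins divided into 2 that were counted and 2 that were not. Ccne1 and Ccne2, the E-type cyclins that act at the start of S phase, had ratios of 43.0 (7.27 against 0.169 FPKM) and 6.82 (13.6 against 1.99 FPKM). Ccnd2, cyclin D2, was the highest of the 44 genes at both ages, with 79.6 to 97.8 FPKM in fetal and 38.0 to 116 FPKM in adult libraries, and the ages overlapped (90.6 ± 7.33 against 78.4 ± 19.4 FPKM, ratio 1.16). Ccnd1, cyclin D1, had 24.8 to 26.7 FPKM in the fetal and 6.15 to 22.6 FPKM in the adult libraries; the ages did not overlap, but the ratio of 1.85 lay under the limit of 2, the closest outside it.

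The S, G2 and M group (Ccna2, Ccnb1, Ccnb2 and Cdk1) summed to 143 ± 13.4 FPKM in the fetal and 1.88 ± 0.563 FPKM in the adult libraries, with a median ratio of 113 over its 4 genes and ratios of 40.7 for Ccna2, the cyclin of S phase and G2, and 71.0 for Ccnb2. Of the kinases and checkpoint genes, 6 of 7 were counted: Bub1b (92.4) and Bub1 (24.7) of the spindle checkpoint, Birc5 (75.3), Aurkb (59.3) and Cdca8 (52.6) of the chromosomal passenger complex, and Plk1 (48.1), the Polo kinase of mitotic entry, where the numbers in brackets are fetal-to-adult ratios. The exception was Aurka, the centrosomal Aurora kinase, with 13.5 to 15.7 FPKM in the fetal and 6.11 to 12.1 FPKM in the adult libraries and a ratio of 1.56. Aurkb was the higher of the Aurora pair before birth (29.6 ± 2.38 against 14.8 ± 0.971 FPKM) and Aurka in the adult (9.51 ± 1.59 against 0.499 ± 0.224 FPKM).

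Cdc20 and Ube2c, an activator and the ubiquitin-carrying enzyme of the anaphase-promoting complex, had ratios of 38.5 and 77.4. The kinetochore motor Cenpe (46.6), the kinetochore protein Cenpf (80.5), the spindle motor Kif11 (78.2) and the spindle factors Nusap1 (26.2) and Tpx2 (45.0) were all counted, and so were the 6 genes of the central spindle and cytokinesis. Those were Prc1 (100), which bundles the midzone microtubules, the motors Kif20a (50.6) and Kif23 (58.8), Racgap1 (52.0), Anln (58.9), the anillin of the cleavage furrow, and Ect2. Mki67, which coats mitotic chromosomes and is the usual stain for cycling cells, had 53.4 to 66.8 FPKM in the fetal and 0.795 to 3.31 FPKM in the adult libraries, a ratio of 31.3. Adult levels of the 44 genes were low enough that 28 had a mean under 1 FPKM and 11 were at 0 in at least 1 adult library, and their spread was wide: the standard deviation was a median of 63.2% of the mean for those 28 genes, 21.9% for the other 16, and 9.76% for the 44 genes in the fetal libraries.

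**Figure D1:**
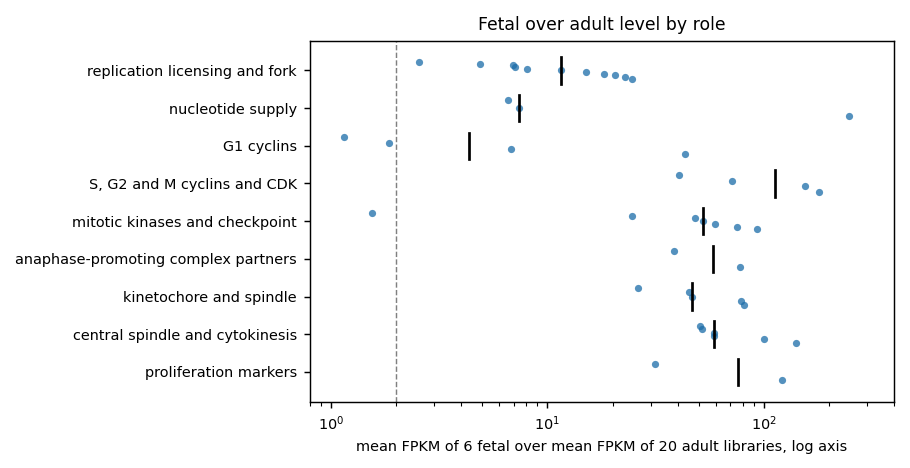
Ratio of the mean fetal to the mean adult FPKM for each of the 44 genes on a log axis, grouped by role, with a black bar at each role's median and a dashed line at a ratio of 2. The S, G2 and M cyclins with Cdk1 have the highest role median (113), the G1 cyclins the lowest (4.33), and only Ccnd2, Ccnd1 and Aurka lie under the dashed line.

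Scaling between the ages moved these ratios but changed the count little. Of the 12004 genes expressed at both ages, the median log2 ratio was 0.32 as deposited, 0.14 after setting the upper quartiles equal, 0.58 after scaling to 9 reference genes and 0.47 with scaled fragments divided by their sum, and Ccnd1 was the only gene that crossed the rule in any of these or of the sex-wise and control-only settings. For 16 of the 44 genes another gene overlaps in the RefSeq annotation. Examples are Ide with Kif11, Ern2 with Plk1, Gse1 with Gins2 (2692 bases) and Fam210b with Aurka (89 bases). Whether the counting used strand was not stated. The part of overlapping genes in the ratios, also in the low ones of Gins2 and Aurka, was not tested.

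**Figure D2:**
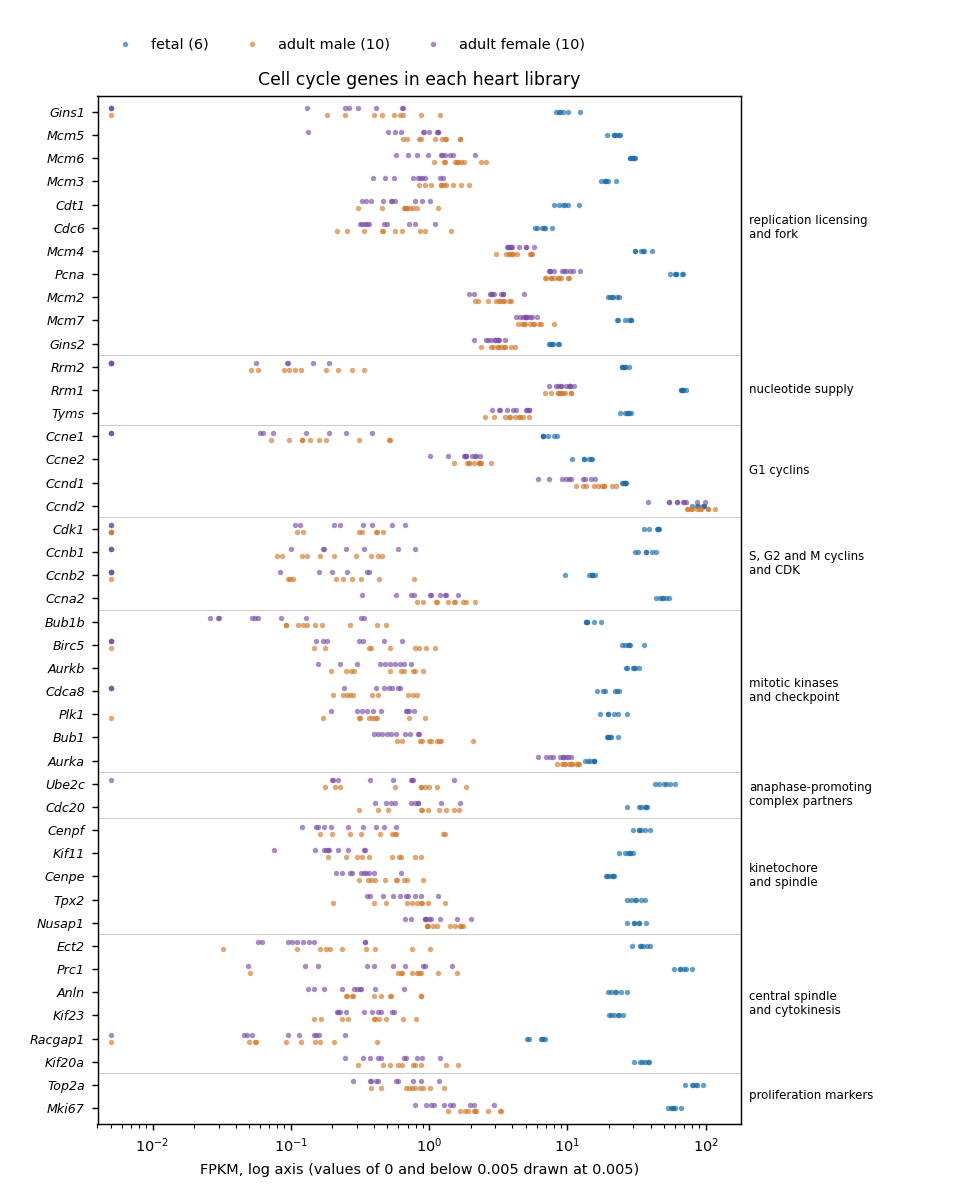
FPKM of the 44 genes in each of the 26 libraries on a log axis, grouped by role, with fetal and adult libraries marked apart; values of 0 and under 0.005 are drawn at 0.005. For 41 genes every fetal library lies above every adult one with means at least 2 times apart, while Ccnd2 overlaps between the ages.

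Other genes of the same pathways, from lists that had been drawn up beside the members, were read in the same way. Of 39 further replication genes 31 were fetal-higher (median ratio 5.30), and of 48 further mitosis genes all 48 were (median 41.3), from 2.00 for Bub3, a checkpoint protein, to 165 for Nek2, a centrosome kinase. Among 13 transcription factors of the cell cycle, 9 were fetal-higher, with Mybl2 (71.5), E2f1 (27.1) and Foxm1 (20.8) as examples. An adult mean of at least 1 FPKM was reached by 28 of the 39 replication and 10 of the 48 mitosis genes. Among the 13 factors, 6 reached it. The others in these lists met the floor only through the fetal libraries, so for them the rule leaned toward fetal-higher. All 4 of the G1 kinases and cyclin D3 were fetal-higher as well, with ratios of 11.2 for Cdk2 and 2.30 for Ccnd3. Only 3 of 8 genes for the pocket proteins and the MuvB core, which make up the DREAM repressor, were fetal-higher; Rbl1 (p107) had a ratio of 11.2, and the MuvB subunit Lin37 was adult-higher, with a ratio of 0.303. The CDK inhibitors, which stop the cycle, moved in both directions: Cdkn1c (p57) was fetal-higher (38.8 ± 4.43 against 2.36 ± 0.724 FPKM, ratio 16.4), whereas Cdkn1a (p21) was adult-higher (8.55 ± 0.574 against 30.2 ± 18.2 FPKM, ratio 0.283). Markers of other cells moved too: the 8 leukocyte markers summed to 16.3 to 25.7 FPKM in fetal and 293 to 449 FPKM in adult libraries, and the part of any cell type in the ratios was not tested.

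Promoters were read for motifs because the 2 arms of the programme, replication and mitosis, are known to be driven through different ones. RefSeq promoter windows on GRCr8, each of 300 bases (250 before the annotated start and 50 after it), were matched to 33 of the 44 genes by symbol; Mcm4, Cdc6, Rrm2, Ccnd1, Ccnd2, Ccne2, Ccna2, Aurkb, Ube2c, Tpx2 and Racgap1 are named only. Motifs were searched on both strands: the CHR as TTTGAA or TTCGAA, the CCAAT box as CCAAT, and the E2F site as TTTCCCGC, TTTCGCGC, TTTGCCGC or TTTGGCGC. The CHR letters were in 18 of the 33 promoters (54.5%) against 19.5% of 27457 promoters of all genes, the CCAAT letters in 25 (75.8% against 37.7%), and the E2F letters in 9 (27.3% against 2.25%).

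The shares of CHR and E2F letters differed by role, and that of the CCAAT box differed less. Of 21 promoters of G2 and mitosis genes, 15 held a CHR (71.4%), 17 a CCAAT box (81.0%), 13 both (61.9%) and 1, that of Cdk1, an E2F site (4.76%). Over the promoters of all genes, 7.83% held both a CHR and a CCAAT box. Of 12 promoters of G1, replication and nucleotide genes, 8 held an E2F site (66.7%), 8 a CCAAT box (66.7%) and 3 a CHR (25.0%). Stretches of 6 promoters follow, 1 of a licensing gene and 5 of genes of mitosis or proliferation (Cdk1, Cdc20, Kif23, Mki67 and Ccnb1), chosen after the motif positions were known, each 5′ to 3′ along the gene with the motif letters in capitals; ATTGG is a CCAAT box read on the other strand.
Mcm6 (chr13:42404380-42404499, minus strand): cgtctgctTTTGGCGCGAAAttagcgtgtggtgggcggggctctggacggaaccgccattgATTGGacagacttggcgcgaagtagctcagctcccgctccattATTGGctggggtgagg
Cdk1 (chr20:19265075-19265292, plus strand): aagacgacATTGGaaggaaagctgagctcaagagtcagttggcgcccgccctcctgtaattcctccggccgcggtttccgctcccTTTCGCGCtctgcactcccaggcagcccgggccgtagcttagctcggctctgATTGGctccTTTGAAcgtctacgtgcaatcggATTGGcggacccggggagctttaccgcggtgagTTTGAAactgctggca
Cdc20 (chr5:137255825-137255893, minus strand): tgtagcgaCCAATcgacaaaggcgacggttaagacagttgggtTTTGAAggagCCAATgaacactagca
Kif23 (chr8:71320648-71320680, minus strand): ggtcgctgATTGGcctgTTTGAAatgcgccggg
Mki67 (chr1:199952672-199952790, minus strand): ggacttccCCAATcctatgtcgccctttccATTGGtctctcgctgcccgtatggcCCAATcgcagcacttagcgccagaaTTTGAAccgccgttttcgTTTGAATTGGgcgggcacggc
Ccnb1 (chr2:33655260-33655315, minus strand): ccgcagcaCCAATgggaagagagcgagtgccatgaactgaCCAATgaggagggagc

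In Mcm6 a pair of overlapping E2F matches on opposite strands began 139 and 135 bases before the start, with CCAAT boxes at 86 and 43 bases before it, and no CHR. Cdk1 held all 3 motifs, with CHR letters 72 and 16 bases before the start. In Cdc20, the activator of the anaphase-promoting complex, the CHR lay between a pair of CCAAT boxes, and in Kif23 1 CCAAT box lay just ahead of 1 CHR. One of the CHR matches of Mki67 shares bases with a CCAAT box on the other strand, and Ccnb1 held a pair of CCAAT boxes with no CHR in this window. The same split stood in the genes that were no members: 75% of 44 promoters of further mitosis genes held a CHR and 4.55% an E2F site, against 14.3% and 40.0% of 35 promoters of further replication genes. Over the 33 genes, the median fetal-to-adult ratio was 58.8 with a CHR and 22.7 without, and 18.2 with an E2F site and 51.6 without; these follow the roles above and are descriptions of letters, not of binding.

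In the fetal heart, hypoxia gave no member past the test, although most members had lower values in hypoxia. By limma on log2(FPKM + 1), where a call needs an adjusted p below 0.3 and more than a 1.2-fold change, 0 of 44 genes were called, beside 0.0373% of 13422 genes (5 genes); 7 members had an unadjusted p under 0.05, 6 of them lower in hypoxia, beside 8.56% of all genes. The log2 change was negative in 34 of 44 members (77.3%), with a median of -0.08, against 49.9% and 0.00 over all genes. The groups did not overlap for 7 members that were lower and 1 that was higher, where 7.23% and 7.07% of all genes did so in those directions. Single fetal libraries stood apart: control 3 was the highest of the 6 libraries for 23 members and hypoxia 2 the lowest for 21, and the summed FPKM of the 40 members other than G1 cyclins was 1262, 1191 and 1353 in control 1 to 3 and 1211, 1111 and 1217 in hypoxia 1 to 3, so that the groups overlapped. Without control 2 the median log2 change was -0.13 and without hypoxia 2 it was -0.04. With a term for Y-linked RNA, added after seeing the data, 0 members were called by limma, 31 of 44 were lower with a median of -0.048, and 4 members and 1047 genes had an unadjusted p under 0.05.

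**Figure D3:**
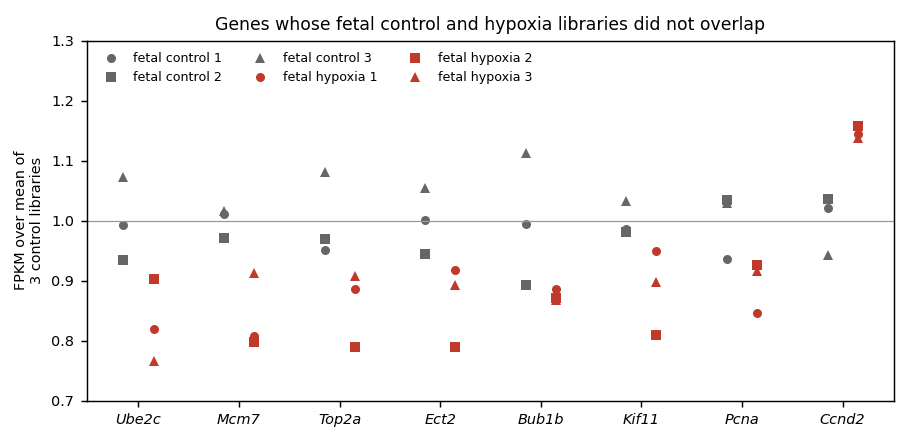
FPKM of the 8 genes whose fetal groups did not overlap, in each of the 6 fetal libraries, divided by the mean of the 3 control libraries of that gene. Ccnd2 lies above its controls in all 3 hypoxia libraries and the other 7 genes lie below theirs, while none passed the test across all genes.

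Ccnd2, cyclin D2, had 86.2, 87.5 and 79.6 FPKM in the controls and 96.6, 97.8 and 96.1 FPKM in the hypoxia hearts. All 3 hypoxia values stood above all controls, with a log2 change of 0.20 ± 0.052 (SE) and an adjusted p of 0.436 by limma. Mcm7, a subunit of the replicative helicase, had 28.9, 27.8 and 29.0 FPKM in the controls and 23.1, 22.8 and 26.1 FPKM in hypoxia, a change of -0.25 ± 0.068 (adjusted p = 0.469). Ube2c had 55.3, 52.1 and 59.7 FPKM against 45.7, 50.3 and 42.7 FPKM, the lowest log2 change of the 44 genes at -0.27 ± 0.079 (adjusted p = 0.498). For Mcm7 and Ube2c every hypoxia heart stood below every control, and the nearest hearts were close (26.1 against 27.8 FPKM for Mcm7).

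Top2a had 84.7, 86.3 and 96.3 FPKM in the controls and 78.9, 70.3 and 80.9 FPKM in hypoxia (-0.21 ± 0.076, adjusted p = 0.555). The DNA clamp Pcna had 61.5, 68.0 and 67.6 FPKM against 55.6, 60.9 and 60.2 FPKM (-0.15 ± 0.063, adjusted p = 0.572). Ect2, Kif11 and Bub1b made up the rest of the 7 lower genes without overlap, with log2 changes of -0.20 ± 0.075, -0.17 ± 0.071 and -0.17 ± 0.086. Hypoxia 2 was the lowest library for Top2a, Ect2 and Kif11, and the nearest values of the groups were close, as with Kif11 at 28.4 FPKM in control 2 and 27.5 FPKM in hypoxia 1. On the side of higher values, Kif23 (20.6, 19.9 and 23.3 against 25.2, 21.6 and 23.5 FPKM, 0.13 ± 0.085) and Mcm3 (19.5, 17.4 and 18.6 against 19.0, 18.7 and 22.5 FPKM, 0.11 ± 0.087) had the next smallest p after Ccnd2, and both overlapped between the groups.

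By role, the licensing and fork genes were divided in direction, and most genes of the other roles had log2 changes below 0. Of the licensing and fork genes 5 of 11 were lower in hypoxia, whereas all 4 genes of the S, G2 and M group (median log2 change -0.16), all 5 kinetochore and spindle genes, 6 of 7 kinases and checkpoint genes and 5 of 6 central spindle and cytokinesis genes were. Lower as well were all 3 nucleotide supply genes, 3 of 4 G1 cyclins, the 2 proliferation markers and 1 of 2 partners of the anaphase-promoting complex. Of the further mitosis genes 41 of 48 were lower, with a median of -0.09 and 0 called; Cenpa, the histone variant of centromeres, and Cks1b, a CDK subunit, had log2 changes of -0.41 ± 0.090 and -0.29 ± 0.066 (adjusted p = 0.423 for both). Of the further replication genes 21 of 39 were lower, with Orc5 of the origin recognition complex at 0.30 (adjusted p = 0.436) and the helicase partner Cdc45 at -0.26 (adjusted p = 0.528). Of 13 transcription factors 9 were lower, and the growth-promoting factor Myc (11.5 ± 0.943 FPKM in the controls, 7.78 ± 0.754 in hypoxia) and Mycn had changes of -0.51 ± 0.097 and -0.38 ± 0.081, again with an adjusted p of 0.423. The 4 pocket protein and MuvB genes that were lower of 8, the 1 of 4 CDK inhibitors and the 3 of 4 G1 kinase and cyclin D3 genes included no call. Erythroid markers summed to between 3131 FPKM (control 3) and 12712 FPKM (control 1) across the fetal libraries, and their part in the member values was not tested.

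**Figure D4:**
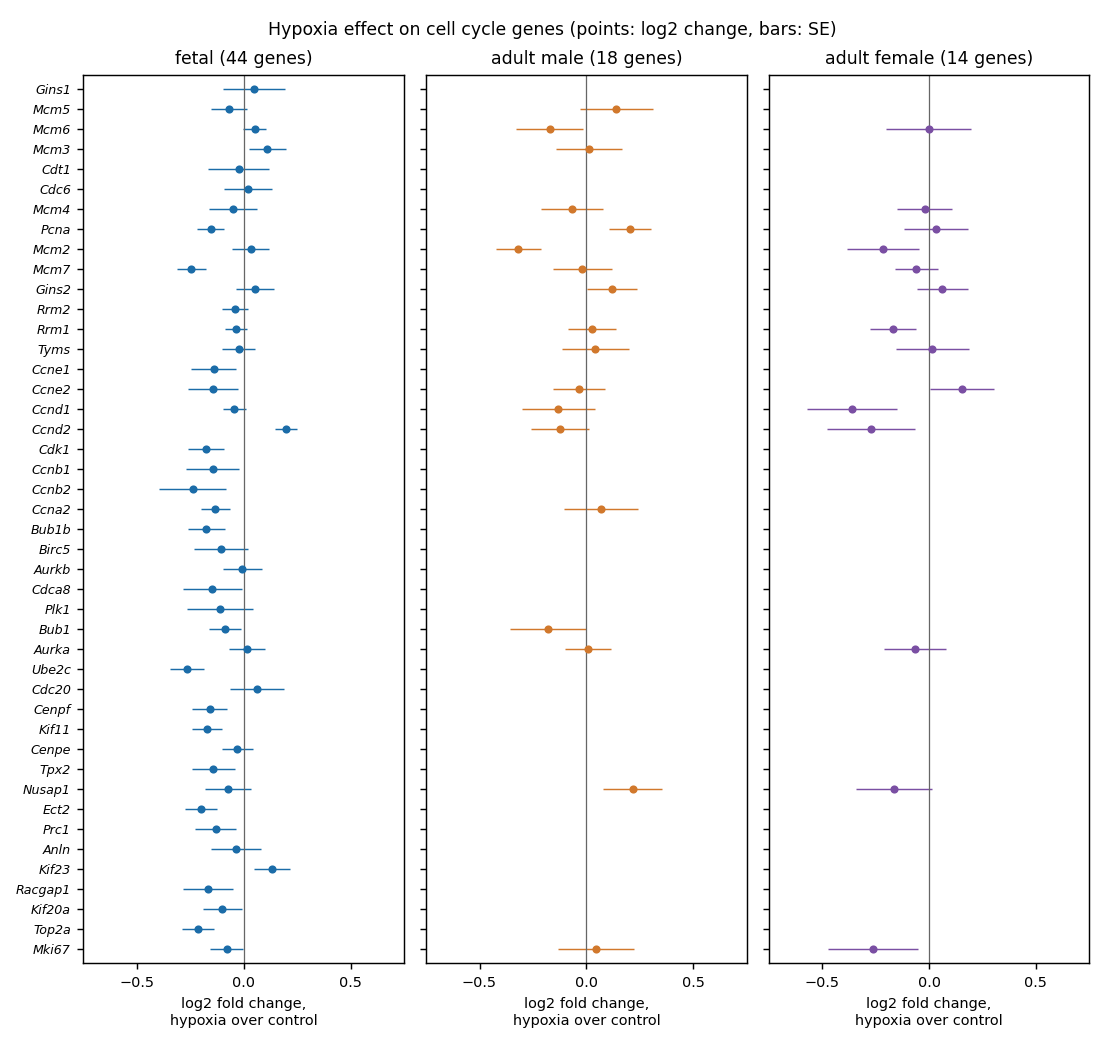
Log2 change of hypoxia against control for each tested gene (points) with its standard error (bars) in fetal, adult male and adult female hearts, for 44, 18 and 14 genes. Most fetal points lie a little left of 0 (34 of 44), the adult bars are wider, and no point was past the test in any of the 3.

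In adult males, 18 of the 44 genes had a mean of at least 1 FPKM and could be tested, and 0 were called, beside 0.0% of 13327 genes; by limma 1 member had an unadjusted p under 0.05, as did 772 genes (5.79%). That member was Mcm2, a subunit of the replicative helicase, with 3.77, 3.4, 3.21, 3.48 and 3.92 FPKM in the controls and 2.65, 2.26, 2.14, 3.07 and 3.25 FPKM in the hypoxia hearts. The groups overlapped in 1 pair only, hypoxia 5 over control 3, and the log2 change was -0.32 ± 0.106 (adjusted p = 0.793). Leaving out the 6 libraries with many receptor genes keeps only control 1 and 2 and hypoxia 1 and 3. The Mcm2 change was then -0.44 (adjusted p = 0.979), and within the 6, a setting chosen after seeing the data, -0.24 (adjusted p = 0.875). The other named members lower in hypoxia were Mcm6 (-0.17 ± 0.156) and Bub1 (-0.18 ± 0.178), and those higher were Pcna (0.20 ± 0.10), Nusap1 (0.22 ± 0.138) and Gins2 (0.12 ± 0.118), all with an adjusted p of at least 0.865. Without the 6 libraries Mcm6 was at -0.41 and Nusap1 at 0.33, Gins2 turned to -0.061, and Bub1 fell under the floor of 1 FPKM. Control 1 held the highest male value of Mcm6, 2.59 FPKM. In all, 8 were lower and 10 higher, with a median log2 change of 0.01. Male hypoxia 4, 1 of the 6 libraries with many receptor genes (1067 above 0), was the highest of the 10 male libraries for 23 of the 44 genes. Of further replication genes 16 of 28 were lower, with Pola2, a subunit of the polymerase alpha-primase complex, at -0.58 and Fen1, the flap nuclease, at -0.31, and of further mitosis genes 5 of 12, with Cks1b at -0.40, and 0 of either list were called.

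In adult females 14 genes were tested and 0 were called, beside 0.0% of 12871 genes; 0 members and 480 genes (3.73%) had an unadjusted p under 0.05 by limma. Lower in hypoxia were 10 of the 14, with a median log2 change of -0.06. Ccnd1 (-0.36 ± 0.210), Ccnd2 (-0.27 ± 0.208) and Rrm1 (-0.17 ± 0.107) had the smallest p among these, and Ccne2 (0.15 ± 0.149), Gins2 (0.06 ± 0.120) and Pcna (0.03 ± 0.149) among the higher ones, all with an adjusted p of 0.999. The Ccnd2 value rests on single hearts: it was -0.16 without control 2, the highest of the females at 98.8 FPKM, and -0.12 without hypoxia 2, the lowest at 38.0 FPKM. Among the other lists Cdk4, the partner of the D cyclins, was at -0.33, the fork protection gene Tipin at 0.39 and the phosphatase gene Cdc25b at 0.49, and 0 were called.

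Over both sexes together, 0 of 16 members were called, beside 0.0759% of 13183 genes (10 genes), and 1 member, Mcm2, had an unadjusted p under 0.05 by limma. In the females Mcm2 was at 2.93, 3.29, 4.85, 2.73 and 2.87 FPKM in the controls and 3.4, 3.42, 1.95, 2.09 and 2.79 FPKM in hypoxia. The highest of these, 4.85, came from the library labelled female control 3, and the log2 change over both sexes was -0.27 ± 0.097 (adjusted p = 0.533). It was -0.28 without the 6 male libraries (adjusted p = 0.884) and -0.21 without those and that female library (adjusted p = 0.999). The sex difference of the hypoxia effect was past the test for 0 of 16 members and for 0.0% of 13183 genes; 0 members and 305 genes had an unadjusted p under 0.05 by limma, and Nusap1, a spindle factor, had the smallest p of the members with a difference of -0.38 ± 0.218, female minus male. The difference between the fetal and the mean adult effect was past it for 0 of 16 members and for 0.0% of 12004 genes, with 0 members and 394 genes at an unadjusted p under 0.05. For Ccnd2 that difference, fetal minus adult, was 0.39 ± 0.244 on the log2 scale with a 95% interval of -0.11 to 0.90. For Mcm2 it was 0.30 ± 0.187 and for Pcna -0.27 ± 0.172. The median standard error of the difference was 0.196 over the 16 members. That of the fetal effect was 0.0855 over 44 members, and that of the adult effect over both sexes 0.104 over 16. The standard deviation was a median of 9.76% of the mean for the 44 members in fetal libraries. For the 16 members in adult libraries it was 21.9%. Whether a difference would pass with a separate spread for each age was not tested. The absence of calls therefore does not show that the effects were alike.

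The adult sexes differed in 6 of the 16 members tested, and all 6 were lower in females, beside 17.3% of 13183 genes called in either direction and 9.36% called lower in females. The fit held hypoxia as a second term, with 10 male and 10 female hearts. Ccnd1, cyclin D1, had a lowest, median and highest value of 11.5, 17.3 and 22.6 FPKM in males and 6.15, 10.4 and 15.8 FPKM in females, a log2 change of -0.59 ± 0.140 (adjusted p = 0.0199 by limma). Ccnd2 had 72.7, 88.8 and 116 FPKM in males and 38.0, 65.6 and 98.8 FPKM in females (-0.45 ± 0.128, adjusted p = 0.0409). Both D cyclins, which join growth signals to the G1 kinases, were thus lower in females with overlapping ranges, and they were the only 2 members past an adjusted p of 0.05.

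The other 4 were genes of S phase and of cycling cells. Mcm3 had 0.847, 1.25 and 1.95 FPKM in males and 0.391, 0.844 and 1.27 FPKM in females (-0.34 ± 0.111, adjusted p = 0.0649), and Mcm6 1.09, 1.60 and 2.59 against 0.577, 1.24 and 2.14 FPKM (-0.30 ± 0.125, adjusted p = 0.139). Mki67 had 1.38, 2.13 and 3.31 FPKM in males and 0.795, 1.35 and 2.96 FPKM in females (-0.38 ± 0.142, adjusted p = 0.10). Ccna2, cyclin A2, had 0.820, 1.44 and 2.14 FPKM in males and 0.329, 1.02 and 1.61 FPKM in females (-0.29 ± 0.129, adjusted p = 0.175). Their levels were near 1 FPKM, where log2(FPKM + 1) understates a change, and in all 4 the ranges of the sexes overlapped. The Ccna2 call was lost without female control 1, female hypoxia 4, male hypoxia 4 or male hypoxia 5 (-0.25 to -0.23), and the Mcm6 call without female control 4, male control 1 or male hypoxia 4 (-0.26 to -0.25). Aurka had an adjusted p of 0.0927 with a log2 change of -0.25 ± 0.089, short of the fold limit, and Pcna, Rrm1, Tyms and Mcm4 had values above 0 (0.12, 0.07, 0.05 and 0.01) that did not pass.

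**Figure D5:**
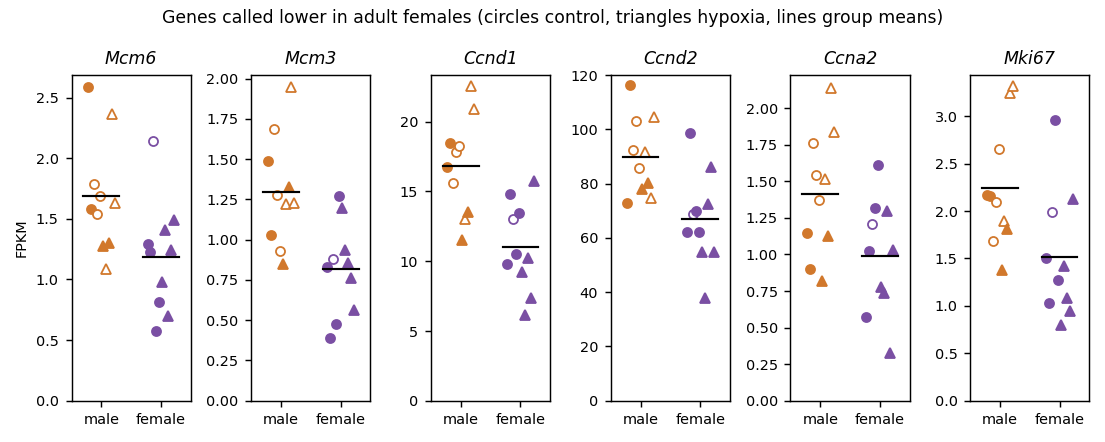
FPKM of the genes called lower in adult females, in each of the 20 adult libraries by sex, with circles for control, triangles for hypoxia, lines at the group means, and open symbols for the 6 male libraries with many receptor genes and for the library labelled female control 3. The sexes overlap for every gene, and for Ccna2 the open male symbols (mean 1.69) lie above the filled ones (mean 0.998).

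These calls changed when the libraries set apart above were left out. Without the 6 male libraries 0 members were called (Ccnd1 -0.44, adjusted p = 0.360; Ccnd2 -0.39, adjusted p = 0.438; Mki67 -0.23, adjusted p = 0.649; Mcm6 -0.30, adjusted p = 0.536), with 460 genes called in all, and Mcm3 and Ccna2 fell under the floor of 1 FPKM. That setting keeps 4 males, and a smaller n alone can end a call. With all hearts the log2 changes had been -0.59 for Ccnd1, -0.45 for Ccnd2, -0.38 for Mki67 and -0.30 for Mcm6. Whether fewer hearts or those 6 libraries lay behind the lost calls was not tested. Without those and without the library labelled female control 3, a setting chosen after seeing the data, 1 member was called, Ccnd1 at -0.45 (adjusted p = 0.290), with 1247 genes in all. Against the females alone, the 6 male libraries gave 6 called members, also a setting chosen after seeing the data. Ccna2 had a mean of 1.69 ± 0.276 FPKM in the 6 male libraries, 0.998 ± 0.164 FPKM in the other 4 males and 0.990 ± 0.389 FPKM in females. The 28 members with a mean under 1 FPKM summed to 16.2 ± 5.01, 13.2 ± 1.37 and 10.7 ± 2.70 FPKM in the same 3 sets. Cell markers moved in the same comparison, with 5 of 8 fibroblast, 5 of 8 leukocyte, 3 of 3 Schwann cell and neuron and 2 of 4 smooth muscle markers called lower in females and 4 of 8 heart muscle markers called higher; their part in the member values was not tested. Of the other cell cycle lists, Cks1b (-0.32), Lin37 (-0.42), Rbl1 (-0.36), Rbl2 (-0.27) and Cdkn2c (-0.40) were called lower in females, and Pola2 (0.40), Pold2 (0.30), Cdkn1a (0.58) and Myc (0.96) higher. The Myc call had an unadjusted p above 0.05 by limma. A single female control heart stood far above the rest for Myc, as given under the other observations.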

How the data were processed

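RNA from 26 rat hearts had been sequenced after rRNA depletion, and samples were grouped by age, sex and condition as labelled. Per the study's methods and the submitters' processing notes, trimming used Trimmomatic 0.35, alignment used TopHat2 2.1.1 with Rnor6.0, and Cufflinks 2.2.1 gave gene levels; for Cuffdiff no version is stated. FPKM values were deposited as 1 fetal and 1 adult table, normalised separately. Whole numbers (a signal) were deposited beside them: fragments that the authors scaled to a common depth within a table and rounded, so no count model was fitted. limma 3.58.1 (R 4.3.3) with a variance trend was applied to log2(FPKM + 1) of genes averaging 1 FPKM or more across the hearts compared, with Benjamini-Hochberg adjustment over all genes tested. It was first run on simulated data with known changes, to check that the mean change was recovered. That check does not give the rate of false or missed calls in these hearts. Calls used the study's limits, an adjusted p below 0.3 and more than a 1.2-fold change. The study applied them to Cuffdiff results and reported more genes changed by hypoxia in fetal and in adult male hearts. The counts here are those of limma on log2(FPKM + 1) and are not the study's. Fetal, male and female hearts were fitted separately, and the sex difference, interaction and both-sex effect over 20 adult hearts. Named genes were the called members, or else the 3 of smallest p in each direction (up to 5 for the sex difference); for the age ratio any member; from the other lists, called genes or the 2 of smallest p. Genes outside this rule were chosen after their values were seen. Members and lists were chosen with earlier results of these data known. Alternatives were a pseudocount of 0.1, no filter, scaled fragments, upper quartile scaling, no trend, a replicate block, leaving out each library, leaving out the libraries in doubt and, added after seeing the data, a term for Y-linked RNA in fetal hearts. Promoter windows were RefSeq's on GRCr8, used for letters only. Replicate libraries shared at most 2.67% identical values. Tables were read with Python 3.11.15 and pandas 2.3.3.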

Additional observations from a re-analysis of the deposited data

Results flagged for a closer look

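Within the adult groups of 5, 1 heart stood away from the other 4 for 6 of 64 combinations of gene and group (9.38%), over the 16 members with a mean of at least 1 FPKM; each gap to the nearest heart was more than 0.71 of the group's range (Dixon's 95% value), which chance passes in about 1 of 20 groups. Ccnd2 was at 98.8 FPKM in female control 2, against 62.2 to 69.9 FPKM in the other control females. Mcm7 was at 4.51 FPKM in female hypoxia 4, against 4.97 to 5.14 FPKM. In males, Mcm6 was at 2.59 FPKM in control 1 (others 1.54 to 1.79), Tyms at 2.54 FPKM in control 3 (others 3.87 to 4.53), Nusap1 at 1.70 FPKM in control 4 (others 0.967 to 1.14) and Mcm4 at 5.57 FPKM in hypoxia 4 (others 3.62 to 3.97). The last 3 of these hearts are among the 6 male libraries with many receptor genes above 0; no cause was tested.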

How the results depend on the processing

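The count of called members stayed at 0 under every alternative run for the hypoxia comparisons and the differences between them. What moved was mostly the count over all genes. In fetal hearts it was 5, and 9 without the filter, 178 with scaled fragments, 3 with upper quartile scaling, 2 without the trend, 2 with the replicate block and 2 with a term for Y-linked RNA. In males it was 0, and 2 with upper quartile scaling and 1 without the 6 male libraries. Over both sexes it was 10, and 0 without the filter, with the replicate block, without the 6 males and also without female control 3, and 4 with upper quartile scaling or without the trend. For the age difference it was 0, and 5 with a pseudocount of 0.1, 16 without the filter and 3 without the trend. The median sex difference of the effect was 0.11 without the 6 males and female control 3. For the adult sex difference 6 members became 0 and 1, and 2287 genes became 3897 without the filter, 460 without the 6 males and 1247 without female control 3 as well. The age rule counted 13 of 16 members (median ratio 7.02) with a mean of at least 1 FPKM at both ages. Signs turned for Gins2 in males (-0.061 without the 6 males), and between the sexes for Rrm1 (-0.029 without the 6 males and -0.036 without female control 3 too) and Mcm4 (-0.032 with upper quartile scaling, -0.0078 with the 6 males against females). Leaving out 1 heart gave 3 to 27 fetal genes with a median member change of -0.13 to -0.038, 0 to 1 male, 0 to 57 both-sex, 0 to 1 interaction and 0 to 5 age-difference genes; the range crossed 0 for Gins2 (-0.013 to 0.12) and Pcna (-0.064 to 0.11) in females and for Mcm4 (-0.037 to 0.050) and Tyms (-0.00029 to 0.10) between the sexes. Aurka passed the fold limit between the sexes with a pseudocount of 0.1, scaled fragments and upper quartile scaling. Causes were not tested. Replicate numbers did not pair the hearts: same-number correlations were -0.07 to 0.04 in fetal, -0.18 to 0.20 in male and -0.09 to 0.08 in female hearts, so the block is a number only. Genes near 0 in adults limit those ratios.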

Other observations

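Cdkn1a, the CDK inhibitor p21, and Myc had a wider spread of values among adult females than among adult males. Cdkn1a was at 38.5 ± 22.9 FPKM in the 10 females and 22 ± 5.24 FPKM in the 10 males (SD), and Myc at 19.3 ± 34.0 and 3.93 ± 1.24 FPKM, where 1 female control heart held 110.3 FPKM of Myc. Neither spread was tested.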
